A study of Mus musculus with 4 samples.

Results

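Axon guidance ligands and receptors were followed in embryonic cochlear ducts from which *Tbx2* had been removed in *Sox2*-expressing cells. They were taken by symbol from the array annotation: Eph receptors, ephrins, semaphorins of classes 3 to 7, plexins, neuropilins, netrins, Slits, Robos and Unc5 receptors. The array held 68 such genes, measured by 97 probes, among 29924 gene names and 39429 probes. The ligand families were 20 semaphorins, 8 ephrins, 4 netrins and 3 Slits, and the receptor families were 14 Eph receptors, 9 plexins, 2 neuropilins, 4 Unc5 receptors and 4 Robos. Of the 68 genes, 65 gave a signal well above background and were tested. *Ntn5*, *Robo3* and *Unc5d* were not well above background in any of the 8 channel measurements.

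Both groups were NMRI mouse embryos at E14.5 whose dams had received 4 mg tamoxifen at E12.5. Mutant ducts were Sox2(creERT2);Tbx2(fl/fl), named *Sox2-Tbx2LOF*, in which the tamoxifen-dependent Cre is driven by the *Sox2* locus into which it was inserted, and which recombines only where that locus is active. Controls are labelled Tbx2(fl/n.d.), their second allele not determined, and the study's methods describe them as lacking Cre. By these accounts the control pools shared a floxed allele with the mutants but not the Cre insertion. Each of the 4 arrays compared 1 mutant with 1 control pool of ducts of the same sex, cleared of the spiral ganglion, so every value is an average over many embryos. Arrays 1 and 2 held female and arrays 3 and 4 male pools. Within each sex the dyes were swapped, the mutant carrying Cy5 on array 1 and array 3 and Cy3 on array 2 and array 4. The 4 arrays lay on 1 slide and were scanned together, and arrays taken at E18.5 were not analysed here.

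Axon guidance molecules are signals and sensors at the surface of cells that attract, repel or sort migrating cells and growing nerve fibres. Secreted class 3 semaphorins act through neuropilins and plexins, membrane-bound semaphorins mostly through plexins alone, ephrins through Eph receptors upon cell contact, netrins through Dcc and Unc5 receptors, and Slits through Robos. In the cochlea these systems are known for steering spiral ganglion fibres to the hair cells, for vessel patterning and for boundaries between tissues. Because whole ducts were measured, a lower signal can mean fewer cells of a type or less RNA per cell, and these cannot be told apart here.

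A value below is the log2 ratio of *Sox2-Tbx2LOF* over control on 1 array, positive where the mutant pool was brighter, for the brightest tested probe of a gene. Signals are log2 values of 1 pool after normalization and are compared only within 1 probe. The test was limma's moderated test with genotype and dye as terms. A gene passed at an adjusted p below 0.05, with Benjamini-Hochberg adjustment over all 21042 genes tested. Arrays limit the precision by their number, 4, and the 95% confidence interval of a member's ratio reached a median of 0.09 to either side.

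In all, 7 of the 65 tested members passed. *Sema3a* and *Sema4g* rose, and *Sema3e*, *Epha8*, *Epha3*, *Plxnb3* and *Plxnc1* fell. The 2 members that rose stand against 2.26% of all tested genes that rose, and the 5 that fell against 2.92% that fell. Under the reported background correction all 7 changes were small, and the largest was 1.31-fold. No member passed with a change of at least 1.5-fold, where 0.133% of all tested genes were higher and 0.309% lower. The confidence intervals of all 65 members lay within 1.5-fold in either direction, as did those of 20878 of all 21042 tested genes. The median ratio of the members was 0.0098, and that of all tested genes was 0.0024. For some members the size of the change depended on the background correction. With Agilent's processed signals *Epha8* lay at -0.93 and *Sema3e* at -0.54, whereas *Sema3a* lay at 0.25.

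**Figure D1:**
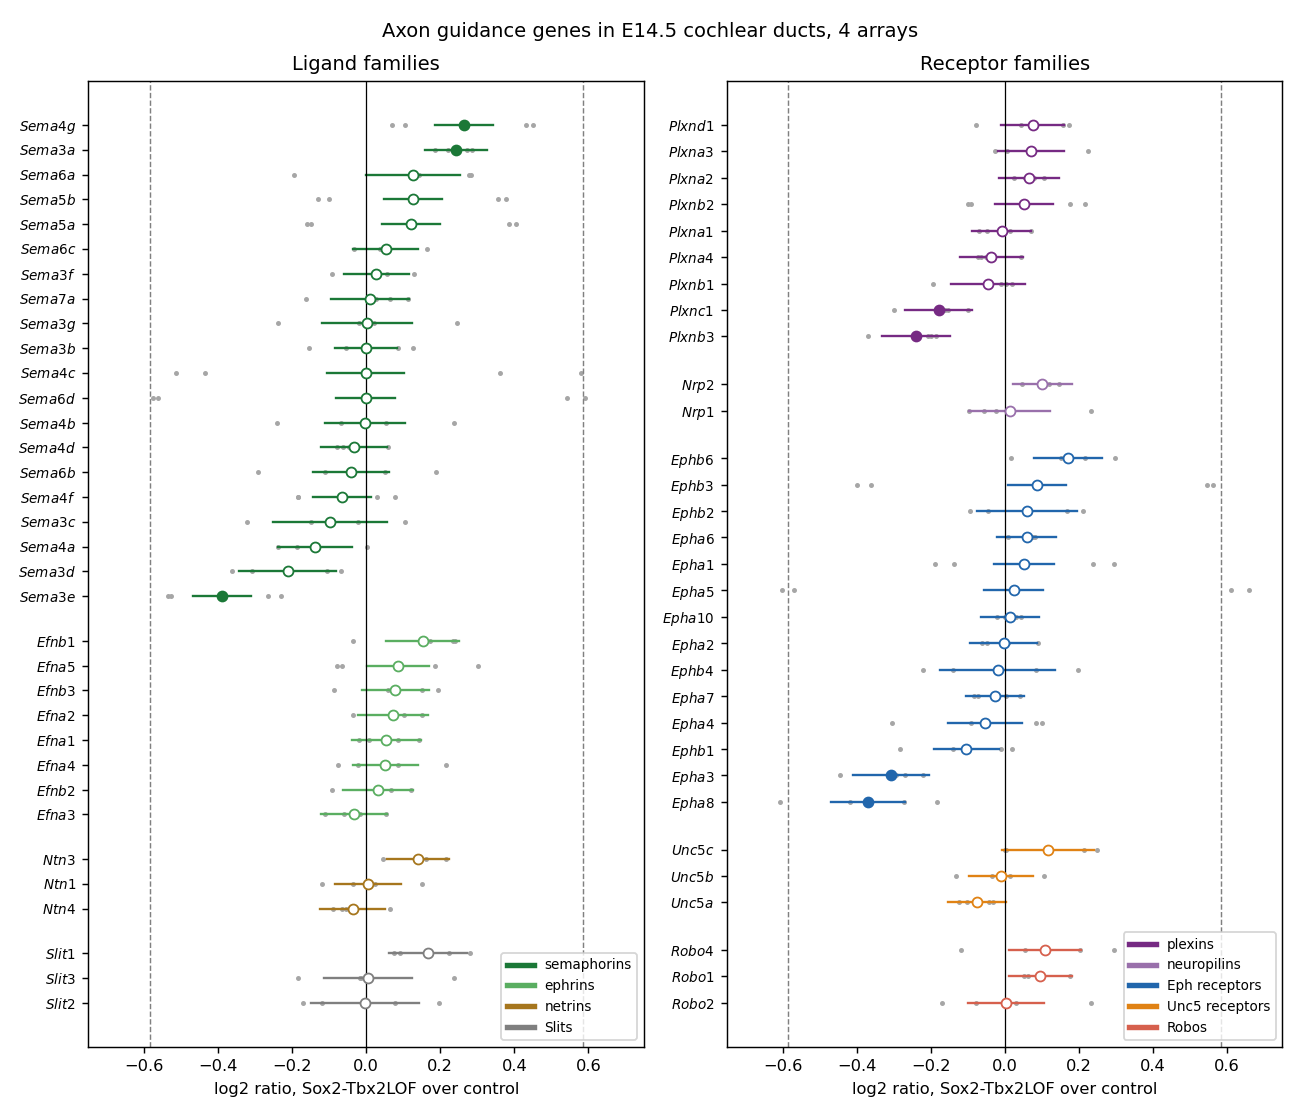
Log2 ratio of *Sox2-Tbx2LOF* over control (horizontal axis) for the 65 tested members by family. Large circles are the fitted ratios with their 95% confidence intervals, filled where the adjusted p was below 0.05, small grey dots are the 4 arrays, and dashed lines mark 1.5-fold. The 7 filled circles lie between -0.39 and 0.26, and no interval reaches a dashed line.

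The probe of the largest change under the reported setting is shown, with both probes of *Sema3a* and *Plxnc1*. These are the members that passed and had more than 1 tested probe. The first 30 of 60 bases are given, as the array files hold them. Together they show which stretch of each transcript was read. No gene annotation of the files' build, mm9, was used, so it is not given here whether a probe lies in coding sequence or in a UTR.
Sema3e: cctccacccaatactgcacaaagtctgtat
Sema3a, brighter probe: gatgggaactagaaaactggagagaaaaat
Sema3a, dimmer probe: tatgcctgtggaactggggctttccatcca
Plxnc1, brighter probe: ggatcccattagccaaatgcacagaatgtc
Plxnc1, dimmer probe: atgccaaggatataccaacctacaaagagg

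The *Sema3e* probe maps to chr5:14256598-14256656 (mm9, plus strand). The brighter *Sema3a* probe maps to chr5:13602462-13602521 and the dimmer one to chr5:13473453-13473512, both on the plus strand, with 35% and 45% G and C. Both *Plxnc1* probes lie on the minus strand, the brighter at chr10:94253879-94253938 and the dimmer at chr10:94257387-94257446, and both hold 41.7% G and C.

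Among the ligands, the secreted semaphorins *Sema3a* and *Sema3e* changed in opposite directions. *Sema3e*, a class 3 semaphorin that binds *Plxnd1* directly and is known for repelling vessels, had signals of 7.75, 7.83, 7.85 and 8.05 in the mutant pools and of 8.28, 8.06, 8.38 and 8.32 in the control pools of arrays 1 to 4. All mutant pools lay below all control pools, although the highest mutant and the lowest control differed by less than 0.01. Its log2 ratios were -0.54, -0.23, -0.53 and -0.27, with a mean of -0.39 ± 0.16 (SD, n = 4) and a 95% confidence interval from -0.47 to -0.31, which is 1.31-fold lower (limma, adjusted p = 0.000645, lower on 4 of 4 arrays). The arrays with the mutant in Cy5 gave the larger falls, and the dye term was -0.14 (adjusted p = 0.0343). Over the 16 alternatives the mean of *Sema3e* ran from -0.55 to -0.36. It passed without any 1 of the arrays.

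*Sema3a*, a secreted repellent that acts through *Nrp1* and class A plexins, was brighter in the mutant pool of every array. Its mutant signals were 12.98, 12.81, 12.88 and 12.71 and its control signals 12.80, 12.52, 12.60 and 12.49, so 3 mutant pools lay above all control pools and the fourth lay within their range. The log2 ratios of 0.19, 0.29, 0.27 and 0.22 were the most even among the 7 members, with a mean of 0.24 ± 0.05 (SD, n = 4), or 1.18-fold (limma, adjusted p = 0.0104). The result depended on 2 arrays, since the adjusted p was 0.0519 without array 1 and 0.0798 without array 3. The dimmer *Sema3a* probe gave 0.12, and its adjusted p over all probes was 0.132.

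*Sema4g*, a membrane-bound semaphorin, had signals of 11.89, 11.64, 11.82 and 11.68 in the mutant pools and of 11.46, 11.54, 11.37 and 11.61 in the control pools. The groups did not overlap. The log2 ratios were 0.43, 0.10, 0.45 and 0.07, with a mean of 0.26 ± 0.21 (SD, n = 4), or 1.20-fold (limma, adjusted p = 0.00472, higher on 4 of 4 arrays). The ratios separated by dye, since both arrays with the mutant in Cy5 gave over 0.4, and the dye term was 0.18 (adjusted p = 0.0185). *Sema4g* passed without any 1 of the arrays.

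**Figure D2:**
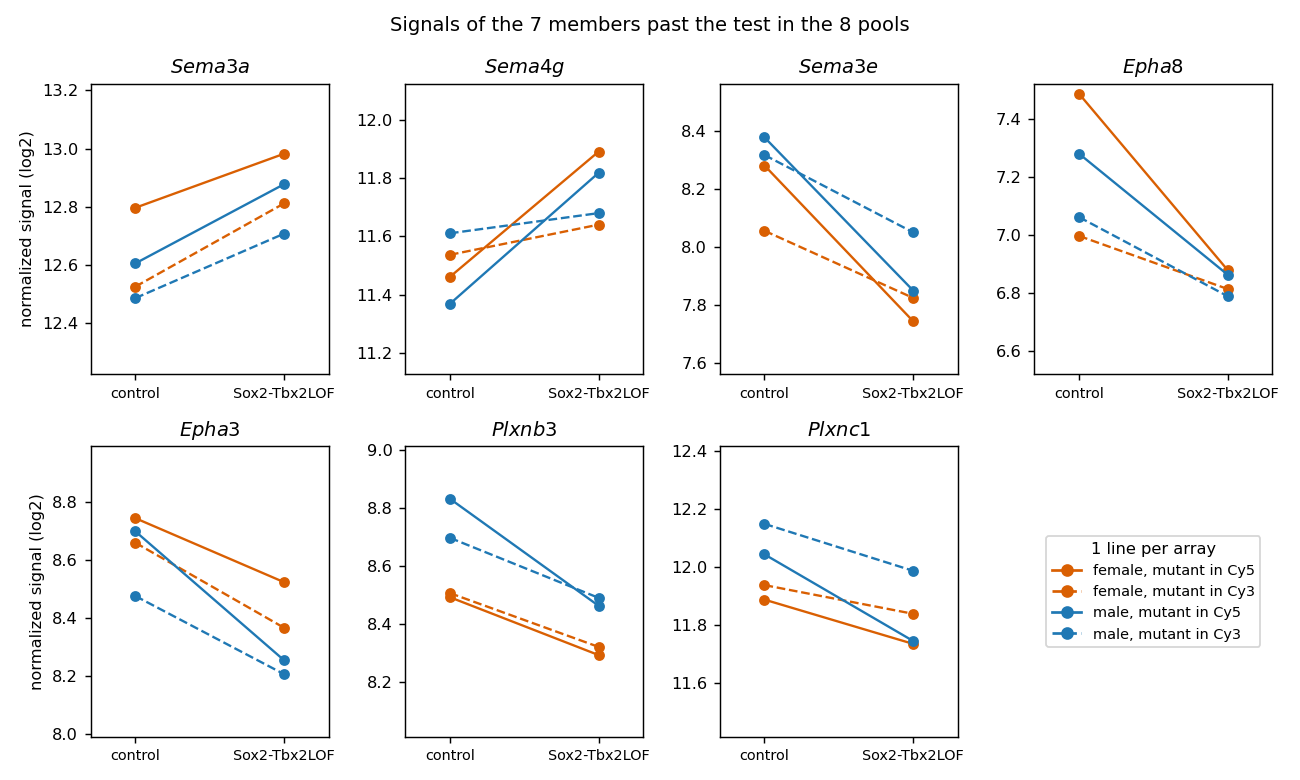
Normalized log2 signal (vertical axis, each panel spanning 1 log2 unit) of the 7 members that passed, in the 8 pools. Lines join the control and the *Sox2-Tbx2LOF* pool of 1 array, colour gives the sex and line style the dye. All 28 lines slope in the direction of their gene's mean ratio.

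The other 17 semaphorins did not pass, and 9 of the 20 family members had a ratio between -0.05 and 0.05. *Sema3d*, a further secreted class 3 member, was lower on 4 of 4 arrays with ratios of -0.11, -0.07, -0.31 and -0.36 and a mean of -0.21 (adjusted p = 0.0792). It passed with median centring, with sex as a further term and without array 2. *Sema5b*, studied in cochlear innervation, had a mean of 0.13 (adjusted p = 0.0781) at its brightest probe. Another *Sema5b* probe gave 0.19, with an adjusted p over all probes of 0.0453, and the last one gave 0.13. *Sema3f*, another secreted semaphorin studied in cochlear innervation, had a mean of 0.03 with a confidence interval from -0.06 to 0.11.

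No ephrin passed. A mean above 0 was seen in 7 of the 8, and in 10873 of all 21042 tested genes. The count was 6 of 8 with median centring in place of loess, where *Efnb2* lay at -0.0017, and also without array 1. The family median was 0.06. The highest was *Efnb1*, a transmembrane ligand of EphB receptors, with ratios of 0.23, -0.04, 0.24 and 0.17 and a mean of 0.15 (adjusted p = 0.0913). The lowest was *Efna3* at -0.03 (adjusted p = 0.69). *Efna5* reached 0.09 (adjusted p = 0.243) and *Efnb2*, a marker of arteries and of boundaries, 0.03 (adjusted p = 0.728).

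Netrins and Slits gave no call either. *Ntn1*, which is made by the otic epithelium, had a mean of 0.01 with an interval from -0.08 to 0.09. *Ntn3* was higher on 4 of 4 arrays, at 0.04, 0.16, 0.14 and 0.22 (mean 0.14, adjusted p = 0.0701), and *Ntn4* had a mean of -0.04. *Slit1* was also higher on 4 of 4 arrays, at 0.09, 0.22, 0.28 and 0.08 (mean 0.17, adjusted p = 0.0818), whereas *Slit2* lay at -0.0036 with an interval from -0.15 to 0.14.

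Among the receptors, 4 of 31 tested genes fell and none rose, beside 2.92% of all tested genes that fell and 2.26% that rose. The 4 were 2 Eph receptors and 2 plexins. Under the alternatives the number that fell ran from 0 to 2 in each of these families. *Epha8*, a receptor tyrosine kinase for A-type ephrins, had the largest fall of any receptor here. Its mutant signals of 6.88, 6.81, 6.86 and 6.79 all lay below its control signals of 7.49, 7.0, 7.28 and 7.06. The log2 ratios were -0.61, -0.18, -0.42 and -0.27, with a mean of -0.37 ± 0.19 (SD, n = 4), or 1.29-fold lower (limma, adjusted p = 0.00293, lower on 4 of 4 arrays). The probe (chr4:136485335-136485394, mm9) was well above background in all 8 measurements but dim, and the size of its change moved with the background correction: -0.54 with a smaller offset, -0.93 with Agilent's processed signals and -0.88 in the series value table. It passed without any 1 of the arrays.

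*Epha3*, the receptor for *Efna5* and other A-type ephrins, had mutant signals of 8.52, 8.37, 8.25 and 8.21 against 8.74, 8.66, 8.70 and 8.48 in the controls. Only the mutant pool of array 1 reached into the control range. The log2 ratios of -0.22, -0.29, -0.44 and -0.27 gave a mean of -0.31 ± 0.10 (SD, n = 4), or 1.24-fold lower (limma, adjusted p = 0.0086). Without array 3 the mean was -0.25 and the adjusted p 0.0509. The probe lies at chr16:63545155-63545214 (mm9, minus strand).

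The other 12 Eph receptors did not pass. *Ephb6*, an Eph receptor without kinase activity, came nearest with ratios of 0.02, 0.22, 0.15 and 0.30 (mean 0.17, adjusted p = 0.0506). It passed at 0.0457 once the sex of the pools was added as a term. The dimmer *Ephb6* probe gave 0.02, with an adjusted p over all probes of 0.784. *Epha4*, known for separating spiral ganglion fibres and mesenchyme in the ear, had ratios of -0.09, 0.10, -0.30 and 0.08 and a mean of -0.05 with an interval from -0.15 to 0.05. *Epha7*, which is known from spiral ganglion neurons, had a mean of -0.03 (adjusted p = 0.714) at its brightest probe. Its other probes gave -0.11 and -0.18, with adjusted p over all probes of 0.213 and 0.0668.

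Of the plexins, *Plxnb3* and *Plxnc1* fell. *Plxnb3*, a receptor for *Sema5a*, had mutant signals of 8.29, 8.32, 8.46 and 8.49 and control signals of 8.49, 8.51, 8.83 and 8.70. The groups were separated by less than 0.01 log2 units. The log2 ratios were -0.20, -0.19, -0.37 and -0.21, with a mean of -0.24 ± 0.09 (SD, n = 4), or 1.18-fold lower (limma, adjusted p = 0.0164). Array 3 stood apart, and without it the mean was -0.20 and the adjusted p 0.0924.

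*Plxnc1*, the receptor of the membrane-anchored semaphorin *Sema7a*, was the weakest of the 7. Its mutant signals were 11.73, 11.84, 11.74 and 11.99 and its control signals 11.89, 11.94, 12.04 and 12.15, with overlap of 1 mutant pool. The log2 ratios of -0.15, -0.10, -0.30 and -0.16 gave a mean of -0.18 ± 0.08 (SD, n = 4), or 1.13-fold lower (limma, adjusted p = 0.0442). It failed the threshold without any 1 of the 4 arrays, with adjusted p from 0.063 to 0.211. The dimmer probe gave -0.08, with an adjusted p over all probes of 0.316.

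The remaining receptors gave no call. *Nrp1* and *Nrp2*, the co-receptors of class 3 semaphorins, had means of 0.01 (adjusted p = 0.909) and 0.10 (adjusted p = 0.146). At its brightest probe *Nrp2* was higher on 4 of 4 arrays. The dimmer *Nrp2* probe gave 0.09 and was higher on 2 of 4 arrays, with an adjusted p over all probes of 0.247. *Plxna1* and *Plxna3*, signalling partners of the neuropilins, had means of -0.01 and 0.07. *Plxnd1* was the highest plexin at 0.08 (adjusted p = 0.308). *Unc5c*, *Unc5b* and *Unc5a*, netrin receptors, had means of 0.12, -0.01 and -0.07, with adjusted p from 0.268 to 0.911. The Robos *Robo4*, *Robo1* and *Robo2* had means of 0.11, 0.10 and 0.0037, with adjusted p from 0.197 to 0.975. The other *Robo2* probes gave 0.16 and 0.12, each higher on 4 of 4 arrays, with adjusted p over all probes of 0.0973 and 0.145.

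Known partners of the members that passed can be set beside them, each with its own value. *Sema3e* fell, while its receptor *Plxnd1* had a mean of 0.08 with an interval from -0.01 to 0.16. *Sema3a* rose, while *Nrp1* had an interval from -0.10 to 0.12 and *Plxna1* one from -0.09 to 0.07. *Plxnc1* fell, while its ligand *Sema7a* had a mean of 0.01 with an interval from -0.10 to 0.12. *Plxnb3* fell, while *Sema5a* had a mean of 0.12 with an interval from 0.04 to 0.20 (adjusted p = 0.0895). *Epha3* fell, and *Efna5* had an interval from 0.00087 to 0.17. These intervals hold for 1 ratio at a time and were not adjusted for the number of genes.

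The separation of the pools gave another view of the same signals. In 4 members (*Sema4g*, *Slit1*, *Ntn3* and *Epha6*) all mutant pools lay above all control pools, which held for 1.74% of all tested genes. In 4 others (*Sema3e*, *Sema3d*, *Epha8* and *Plxnb3*) all mutant pools lay below, which held for 2.54% of all tested genes. *Slit1*, *Ntn3*, *Epha6* and *Sema3d* did not pass the test across genes, and *Epha6* differed by only 0.06. *Sema3a*, *Epha3* and *Plxnc1* passed on ratios within arrays although their pools overlapped between arrays.

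The dye often mattered more than the genotype, among the members as over all genes. The fitted dye term was larger than the genotype term in 36 of the 65 members (12271 of 21042 genes), and it passed in 11 members and in 2804 of all genes. *Epha5*, an Eph receptor, had ratios of 0.66, -0.60, 0.61 and -0.57, positive wherever the mutant was in Cy5, which leaves a genotype ratio of 0.02 beside a dye term of 0.61. *Sema6d*, a transmembrane semaphorin, gave 0.59, -0.56, 0.54 and -0.58, with a genotype ratio of -0.0014 and a dye term of 0.57. *Sema4c* and *Ephb3* had dye terms of 0.47 and 0.47, and *Sema5a* and *Sema5b* had 0.27 and 0.24. These ratios were read as a genotype difference only after the swap had been averaged out.

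**Figure D3:**
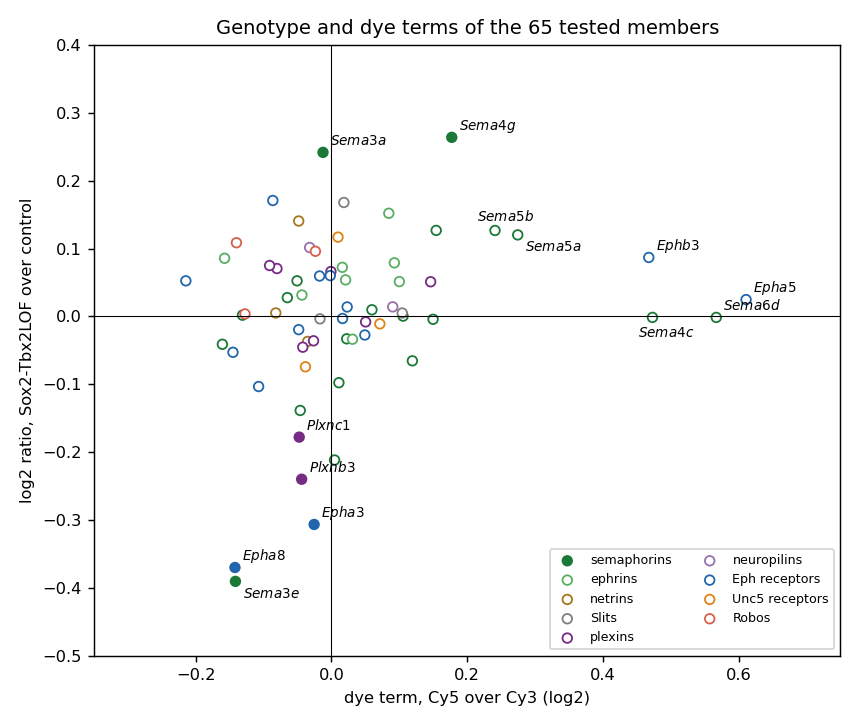
Genotype ratio (vertical axis, log2 of *Sox2-Tbx2LOF* over control) against the dye term (horizontal axis, log2 of Cy5 over Cy3) for the 65 tested members, filled where the genotype test passed. *Epha5*, *Sema6d*, *Sema4c* and *Ephb3* lie far to the right at dye terms of 0.47 to 0.61 with genotype ratios below 0.1.

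The genotype effect was also compared between the sexes, by an interaction term with 2 arrays a sex. No member passed (limma, lowest adjusted p 1.00), and 4 members had an unadjusted p below 0.05. Over all 21042 genes the count was also 0, with a lowest adjusted p of 0.236. The female minus male differences of the members ran from -0.26 to 0.28 on the log2 scale. The size of difference that this test could detect was not examined.

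For 21 members more than 1 probe was tested. The probes shared their sign in 15 of them and differed in 6, none of which had a probe past the threshold. The median spread between probes of 1 gene was 0.07, and the largest, 0.17, belonged to *Sema6a*.

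Further genes of the guidance machinery, 67 co-receptors, adhesion molecules and signal transducers, were taken as a list of their own. Of 66 tested, 3 rose and 6 fell, beside 2.26% of all tested genes that rose and 2.92% that fell. The median ratio of the list was -0.01. The falls of *Nrcam* and *Chl1* were larger than that of any member. *Nrcam*, an adhesion molecule of nerve fibres, had ratios of -1.02, -0.53, -0.92 and -0.64 (mean -0.78, limma, adjusted p = 6.67e-05), and *Chl1*, a close relative of L1, had -0.71, -1.03, -1.16 and -1.11 (mean -1.0, limma, adjusted p = 0.000206). *Pak3*, a kinase downstream of Rac, had a mean of -0.29 (adjusted p = 0.0103). The 3 that rose were *Flrt1* at 0.26, *Cntn1* at 0.19 and *Dcc*, the netrin receptor, at 0.26 (adjusted p = 0.0302). *Dcc* followed the dye, with ratios of 0.96, -0.26, 0.68 and -0.35, and *Cntn1* also had 2 positive and 2 negative ratios.

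Marker genes of other cells moved on the same arrays, on which 2.26% of all tested genes rose and 2.92% fell. Of 14 neuronal markers 12 were tested, of which 9 fell and 1 rose, with a median of -0.40. The 9 became 3 with separate channels, without the pairing by array. *Elavl3*, *Sncg* and *Nefm* had means of -1.08, -0.83 and -0.72. *Neurod1* and *Neurog1*, which define young otic neurons, were not tested because they were not well above background in enough measurements. The summed signal of the 12 ran from 56697 to 61763 in the mutant and from 59328 to 61678 in the control pools, but 70.0% of it came from *Isl1*, which rose, and *Snap25*, which did not pass, so the sum says little of the other 10. Among the markers of glia and Schwann cell precursors, *Foxd3* (-1.17), *Cdh19* (-0.63) and *Ednrb* (-0.59) fell. In the other direction, 2 of 8 endothelial markers and 1 of 9 mesenchymal markers rose. Under the alternatives these counts ran from 0 to 2, with 0 in 7 of 16, and from 0 to 3. The part of these cells in the values of the guidance genes was not tested. All 8 markers of the cochlear epithelium were detected, of which *Jag1* fell and the others did not pass, with a median of 0.03 (-0.0043 with median centring). No epithelial marker fell under 7 of the 16 alternatives, and 1 rose without array 2 and without array 4.

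**Figure D4:**
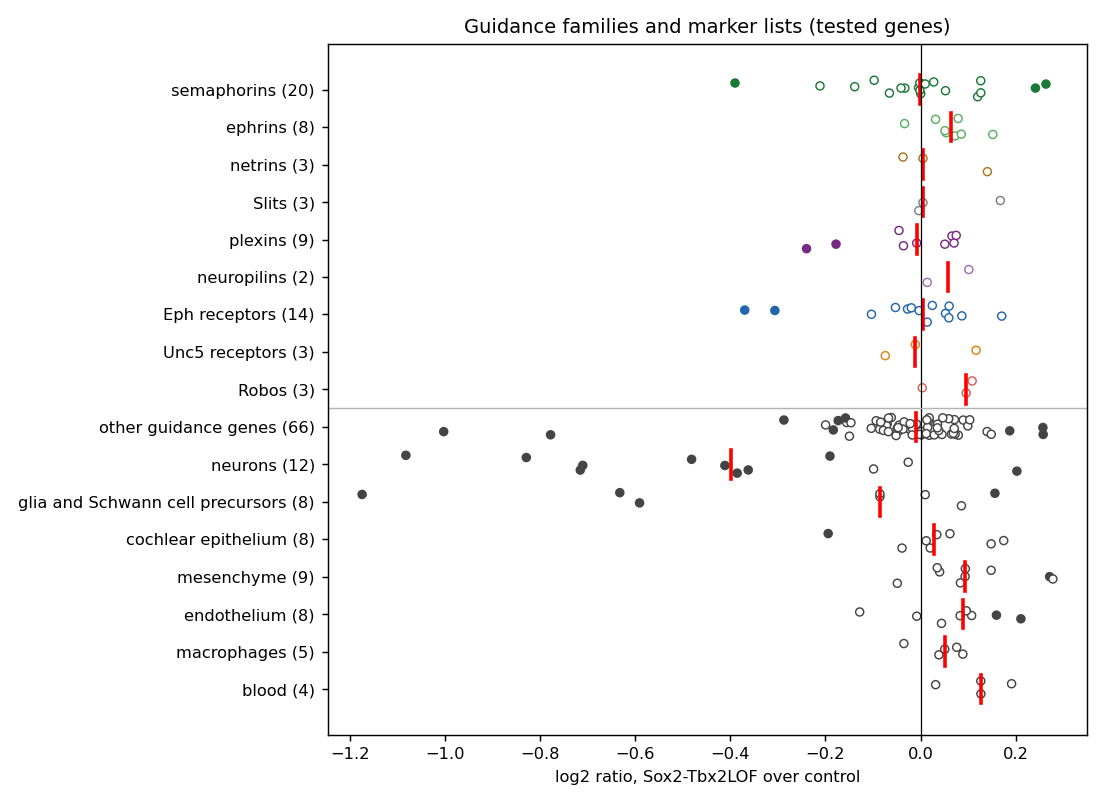
Log2 ratio of *Sox2-Tbx2LOF* over control (horizontal axis) of each tested gene, by guidance family above the grey line and by the further lists below it. Filled points passed at an adjusted p below 0.05, red bars are medians, and the number tested is in brackets. The neuronal markers have a median of -0.40, whereas the family medians lie between -0.01 and 0.10.

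The targeted gene and the driver served as a check of the labels. *Tbx2* was lower on 4 of 4 arrays, at -0.25, -0.05, -0.13 and -0.03, but did not pass (limma, adjusted p = 0.124), and whether its probe lies in the deleted part was not examined. The Cre is fused to the ligand-binding part of an oestrogen receptor, so the mouse gene *Esr1* was read as well. Whether its probes match the fused sequence was not examined. Of its 4 probes, 3 were not well above background in any pool. The remaining probe was well above background in 4 of 4 mutant and in 0 of 4 control pools, so that its mutant signal exceeded the control by at least 4.24-fold (limma, adjusted p = 5.96e-06). *Sox2* had a mean of 0.01. Flagged spots made up 8.29% to 8.56% of gene spots per array, and no gene spot was saturated.

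Because Tbx2 is a T-box factor, the promoters of the members were searched for the core of its binding site, as a description of sequence alone. RefSeq windows of GRCm38.p6, from 250 bases before to 50 bases after a transcription start, were found for 59 of the 68 genes, 75 windows in all. The letters GGTGTGA or their reverse complement occurred in 4 of these windows (5.33%) and in 3.98% of all 32851 windows. The shorter GTGTGA, which is part of GGTGTGA, occurred in 10 of the 75 windows (13.3%) and in 14.49% of all. Of the 7 members that passed, 1 window each was found, and only that of *Sema3a* held the shorter motif. The 30 bases around each match are shown for the 4 full matches and for *Sema3a*, on the strand of the gene, with the motif or its reverse complement in capitals.
Efna1: acccccgcccaTCACACCctgcaacgcaca
Nrp2: tccttgctccgGGTGTGAcacacccgcagc
Sema4a: gtctgtactgctgggggtaaGGTGTGAaag
Sema6c: cttacctggggTCACACCagcaggcagcac
Sema3a: gcaattgaaaatagaaggctttGTGTGAaa

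These stretches lie at chr3:89280947-89280976 for *Efna1*, chr1:62703067-62703096 for *Nrp2*, chr3:88461133-88461162 for *Sema4a*, chr3:95164114-95164143 for *Sema6c* and chr5:13396804-13396833 for *Sema3a* (GRCm38.p6). The motif began 14 bases before the start for *Efna1*, 239 before for *Nrp2*, 214 before for *Sema6c*, and at base 41 and 43 after it for *Sema4a* and *Sema3a*. The 4 genes with the full motif had mean ratios of 0.05, 0.10, -0.14 and 0.05 in this order of *Efna1*, *Nrp2*, *Sema4a* and *Sema6c*, and none of them passed.

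**Figure D5:**
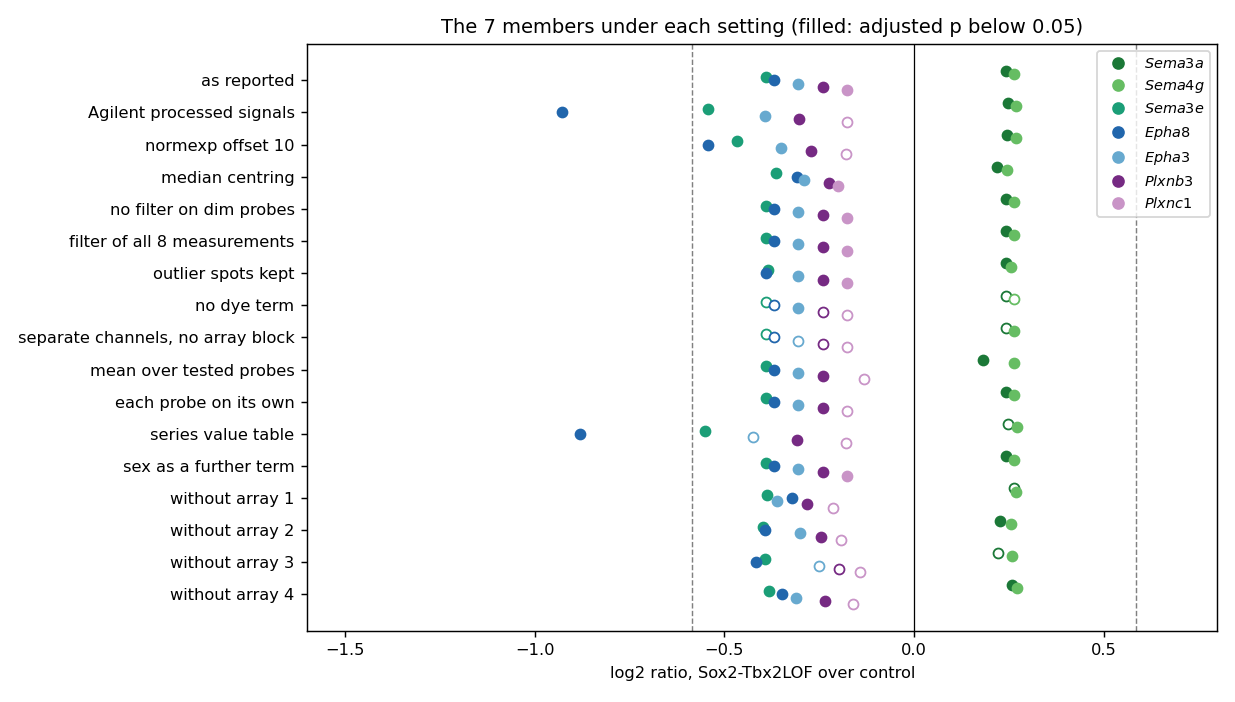
Log2 ratio of *Sox2-Tbx2LOF* over control (horizontal axis) of the 7 members under the reported setting and 16 others (rows). Filled points have an adjusted p below 0.05 and dashed lines mark 1.5-fold. Every point keeps its sign, *Epha8* alone crosses 1.5-fold (under the series value table and under the signals processed by Agilent), and *Plxnc1* is open in 11 of the 16.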

How the data were processed

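RNA of pooled cochlear ducts was hybridised to 4 Agilent 2-colour arrays. The authors deposited Feature Extraction 10.7.3.1 output (the version is from their processing notes), with the mean and background intensity of each spot in both dyes, Agilent's processed intensity and a log10 ratio of processed Cy5 over Cy3, which was not used. The deposited value table holds a score per probe that behaved as a mutant-to-control fold change with falls written as negative numbers (its correlation with the ratios used here was 0.882 to 0.913), with its normalization not given in the sources used here. Its median was 1 on each array.

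Intensities were corrected with normexp (offset 50) and normalized by loess within arrays without control and flagged spots, the 4 spots of a probe were averaged, and a probe was kept if well above background in 4 or more of 8 channel measurements (27963 of 39429). The brightest kept probe stood for a gene. Separate channels were scaled by Aquantile. Ratios were tested with limma 3.58.1 (R 4.3.3) over all genes, with a prior of 5.65 degrees of freedom beside 2 residual ones. The study's methods used SAM at a minimum change of 1.5-fold, which was not rerun. In simulated arrays of 21042 genes, 98% of 50 genes changed by 0.25 on the log2 scale were recovered. The simulated noise was independent between genes and arrays and took its size from the same fit. The share therefore does not show how well real changes of this size were found.

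The labels do not say that pools came from separate litters, whereas the methods call them independent. Pools are paired only by hybridisation and sex. Members and gene lists were chosen with earlier results of these data known. Named were members that passed, the highest and lowest of each family, 15 members known from the ear, and up to 6 further guidance genes by adjusted p. *Efna1*, *Epha5*, *Epha6*, *Ephb3*, *Sema3c*, *Sema3d*, *Sema4a*, *Sema4c*, *Sema5a*, *Sema6a*, *Sema6c*, *Sema6d* and *Sema7a* were named after their values were seen. Alternatives covered background correction, normalization, filters, dye and sex terms, probe choice, the value table and leaving out each array. The result of 1 marker gene is not reported here.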

Additional observations from a re-analysis of the deposited data

Results flagged for a closer look

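Among 41 named genes, 2 had 1 array far from the other 3, where chance gives about 1 in 20. *Plxnb3* had a ratio of -0.37 on array 3 and between -0.21 and -0.19 on the others, a gap of 0.884 of its whole range. *Sox2*, the locus of the Cre insertion, had -0.26 on array 3 and between 0.08 and 0.14 on the others, a gap of 0.835 of its range. No named gene differed between the sexes past the adjusted threshold.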

How the results depend on the processing

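The 7 members that passed kept their direction under all 16 alternatives. The losses were 1 of 16 for *Sema4g*, 2 for *Sema3e* and for *Epha8*, 3 for *Epha3* and for *Plxnb3*, 5 for *Sema3a* and 11 for *Plxnc1*. In place of 2 members higher and 5 lower, 0 and 1 passed without a dye term (unadjusted p below 0.05: 7 and 7), 1 and 0 with separate channels and no replicate block, which drops the pairing of pools on an array (unadjusted: 5 and 7), and 1 and 3 with the series value table. Over all genes the share that passed went from 5.18% to 1.25%, 1.03% and 1.97% in the same settings. With that table and with Agilent's processed signals, 1 member was lower by at least 1.5-fold, *Epha8*. In place of 3 further guidance genes higher and 6 lower, 0 and 2 passed without a dye term, 0 and 2 with separate channels, 0 and 3 with the value table, and 0 higher with Agilent's processed signals (unadjusted p below 0.05 for higher genes: 3, 5, 7 and 6). The cause was not tested. Leaving out 1 array gave 1 to 4 members higher (4 without array 2) and 2 to 6 lower (2 without array 3), and 0 to 2 further guidance genes higher and 2 to 6 lower. The count of members that differed between the sexes was 0 under all 5 alternatives run (2 to 4 at an unadjusted p below 0.05).

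Of 25 named genes that did not pass, *Efnb1*, *Ephb6* and *Sema5b* passed in 4 of 400 values, and 10 changed sign without passing. This tally leaves out the members named after their values were seen. Of those, *Sema3d* passed with median centring, with sex as a further term and without array 2. *Sema3c* and *Sema6a* passed without array 2. All arrays share a slide and a scan, so a slide or scan block was not run. Dim probes limit size: the offset draws ratios near background toward 0.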
